A study of Mus musculus with 22 samples.

Results

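The 8 control libraries of the study, 4 from mice on a low fat diet for 20 weeks and 4 from mice on a low fat diet for 7 weeks, were compared here over all peaks. They were chosen by the diet given in their labels, and they are 8 of the 22 libraries in the series. The study made ATAC-seq libraries from hepatocyte nuclei of male HEP-INTACT mice, in which tagged nuclei are pulled out of whole liver on beads, and set 2 diets that cause steatohepatitis against their own controls. ATAC-seq cuts open DNA with a transposase, so the number of reads under a peak measures how accessible that stretch of chromatin is. One diet (FPC, usually read as fructose, palmitate and cholesterol) was given for 20 weeks and the other (CDAHFD, choline-deficient, amino acid-defined, high fat) for 7 weeks, and each has a mild and an advanced group. The first control group was therefore the low fat group of the FPC cohort and the second that of the CDAHFD cohort. Both were male, carried the same tag and had no disease diet. The labels give no age, no batch and no composition of the low fat diets, so time on the diet, age, cohort and handling cannot be told apart in this comparison. Each library carries its own number in the labels, which do not say in words that each is 1 mouse, so the p-values measure the spread between libraries. In the main fit that spread was estimated over all 22 libraries of the series.

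Hepatocytes keep their identity through transcription factors such as Hnf4a, Cebpa and Foxa proteins, which hold open the promoters and distal elements of genes for plasma proteins, lipid handling and detoxification. Many other promoters depend on factors with no tissue bias. One of these is NF-Y, a trimer that binds the CCAAT box close to the start of housekeeping, cell cycle, endoplasmic reticulum and sterol genes, often at several boxes in a row. Hepatocyte chromatin also follows feeding, the clock and growth hormone pulses, so that mice sampled at different moments can differ at genes for glucose production or hormone response.

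Total counts in peaks, in M (mega) reads, were 4.17, 3.79, 6.04 and 4.01 on 20 weeks and 7.02, 6.68, 8.38 and 5.95 on 7 weeks, so the groups overlapped only in the deepest 20-week library (exact two-sided permutation test, p = 0.0571, where 4 against 4 cannot go below 0.0286). Depth therefore moved with the groups. Its part in the calls was tested only by thinning the 8 controls, fitted without the other libraries, to a common total. That gave 478 called peaks, where the same 8 controls gave 764 without thinning and the main fit over all 22 libraries gave 1866. In 3 measures, the openness of promoters with CCAAT boxes and the summed signals of satellite and of ribosomal RNA peaks, the 4 libraries on 7 weeks lay below all other 18 of the series, in the last by a narrow margin; they are given with those results. The 6 hepatocyte markers Alb, Apoa1, Ttr, Hnf4a, Cps1 and Serpina1a summed to between 1386 and 1464 CPM (counts scaled to the reads in peaks of the library) on 20 weeks and to between 1384 and 1478 on 7 weeks. Cholangiocyte markers summed to 32.3 to 42.7 and 34.9 to 48.0 CPM, stellate cell markers to 26.7 to 43.7 and 37.2 to 49.9, macrophage markers to 16.6 to 23.7 and 16.6 to 22.8, endothelial markers to 121 to 139 and 140 to 178, and lymphocyte markers to 124 to 139 and 114 to 129. Among the markers with no peak were Cftr, Lrat, Des, Pdgfrb, Hand2, Clec4f, Vsig4, Timd4, Tek, Cd3e, Lck and Cd79a, and no gene of these short sets passed the test. Of these sums the endothelial one did not overlap, lying lower in all 4 libraries on 20 weeks. Over the longer lists, summed within 50 kb of the starts, the 7 macrophage genes (123 to 134 against 144 to 154 CPM) and the 16 endothelial genes (498 to 539 against 539.7 to 574) were also lower in all 4. Their part in the results was not tested.

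In the controls of both durations, the chromatin of hepatocyte genes was among the most open in the table. Of 26 genes for hepatocyte transcription factors, 16 had their highest peak in the top 10% of all 68827 peaks, and the median gene stood at percentile 92.8. For 30 genes of secreted plasma proteins the median was percentile 93.2, with 19 in the top 10%. By the same measure the marker lists of other cells stood lower, at percentile 56.4 for 18 cholangiocyte genes, 62 for 16 endothelial genes, 45.3 for 7 macrophage genes and 40.4 for 4 stellate cell genes, while the 5 lymphocyte genes with a peak stood at 81.4. All peaks are 200 bp wide, so CPM can be set side by side between peaks. The highest peak near Cebpa, which encodes a core hepatocyte factor, lay 24764 bp downstream of the start and measured 68.0 CPM on 20 weeks and 72.2 on 7 weeks. That near Alb, the albumin gene, lay at -10731 bp from the start and measured 62.6 and 66.8 CPM. At Ppara, a nuclear receptor of fatty acid oxidation, the highest peak lay at -58 bp and measured 54.3 and 50.1 CPM.

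The most accessible peaks of the table were mostly not hepatocyte genes. The peak at Rn45s, the 45S ribosomal RNA precursor, had 261 ± 48.0 CPM on 20 weeks and 165 ± 42.5 on 7 weeks (SD, n = 4 each). Promoter peaks at Hjurp (160 and 159 CPM), Opn3 (140 and 128), Ogfrl1 (119 and 107), Gpr155 (113 and 110), Tspan14 (110 and 113), Mesd (112 and 111), Prkra (117 and 105) and Gpbp1 (109 and 108) followed. Among distal peaks the highest included one at -10674 bp from Hjurp (130 and 126 CPM) and one 1880 bp inside Ugt1a1, a bilirubin-conjugating enzyme (104 and 93.3). Among the most accessible promoter and the most accessible distal peaks, ranked apart, Rn45s and a distal peak at -25314 bp from Col19a1 differed between the durations. The latter had 139.8 CPM on 20 weeks and 83.7 on 7 weeks (log2 fold change 0.74, adjusted p = 8.13e-05). Adjusted p-values here are from edgeR's quasi-likelihood test with Benjamini-Hochberg adjustment over all peaks, or all genes, of the table. Below this top, the median peak had 9.94 CPM, 5% of peaks were under 1.87 and 5% over 42.3.

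Of the hepatocyte transcription factor and plasma protein genes 3.85% and 3.33% were called between the groups, where 6.04% of all genes were. Each of these 2 shares is 1 gene. Counts summed over all peaks within 50 kb of the start measure the open chromatin around a gene, not its expression. Around Alb this sum was 358, 391, 369 and 372 CPM on 20 weeks and 390, 381, 401 and 396 CPM on 7 weeks, with overlapping groups (log2 fold change -0.07 ± 0.07 SE, adjusted p = 0.604). Around Hnf4a it was 165, 165, 164 and 149 against 150, 158, 162 and 153 CPM (0.05 ± 0.05, adjusted p = 0.632). Around Ttr, which encodes the thyroid hormone carrier transthyretin, the log2 fold change was -0.08 ± 0.05 (adjusted p = 0.384). Of the 26 transcription factor genes 1 passed the test, Foxa3, which was lower on 20 weeks: 44.7, 46.2, 49.0 and 49.2 CPM against 59.0, 55.1, 63.3 and 61.1 (log2 fold change -0.33 ± 0.08, adjusted p = 0.014). Of the 30 plasma protein genes 1 passed, Igfbp1, which encodes a fasting-induced binding protein of insulin-like growth factors, with 94.0, 101, 92.8 and 107 CPM against 122, 126, 157 and 136 (-0.46 ± 0.12, adjusted p = 0.0225). In both genes all 4 libraries on 20 weeks lay below all 4 on 7 weeks. Foxa3 missed the threshold without 20-week replicate 1 (adjusted p = 0.0529) or 7-week replicate 3 (0.0583), and Igfbp1 without 20-week replicate 1 (0.066), 20-week replicate 3 (0.0761) or 7-week replicate 3 (0.0981).

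Of 68827 peaks tested, 1411 were more accessible on 20 weeks and 455 less (2.71% called, 2.05% higher and 0.661% lower). The differences were mostly small: the median log2 fold change over called peaks was 0.75 for the higher and -0.62 for the lower ones, and 403 and 82 changed more than 2-fold. Over all peaks the median was 0.01, with 5% of peaks below -0.39 and 5% above 0.61. At the level of genes, 594 of 15686 were higher and 354 lower (6.04% called, 3.79% higher and 2.26% lower). With upper quartile or total count scaling the share of called genes that were higher was 54.8% or 54.5% in place of 62.7%. Fitting the 8 controls alone, without the other 14 libraries that share the estimate of the spread, called 764 peaks (663 higher) and 369 genes (269 higher). A change in all nuclei and a change in a share of them cannot be told apart in bulk libraries.

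The called peaks were spread over all annotation classes. Promoter-class peaks, those that the authors' annotation places at a start, had 465 higher and 127 lower of 15589 (2.98% and 0.815%), with a small median size (0.38 and -0.40 on the log2 scale). Intron peaks had 466 and 168 of 27705 (1.68% and 0.606%), and intergenic peaks 390 and 122 of 21077 (1.85% and 0.579%), with larger median sizes of 0.87 and 0.95 among the higher ones. The share of each library's reads in peaks within 1 kb of a start differed by less than its spread, 41.4% ± 0.728 on 20 weeks and 41.3% ± 0.524 on 7 weeks (SD, n = 4 each, exact permutation test, p = 0.83). The exact permutation test also passed for none of the intron (p = 0.971), intergenic (p = 0.857), exon and UTR (p = 0.4) or end-site (p = 0.714) shares, for n = 4 against 4. The shares thus differed by less than their spread between libraries while single promoters differed.

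**Figure D1:**
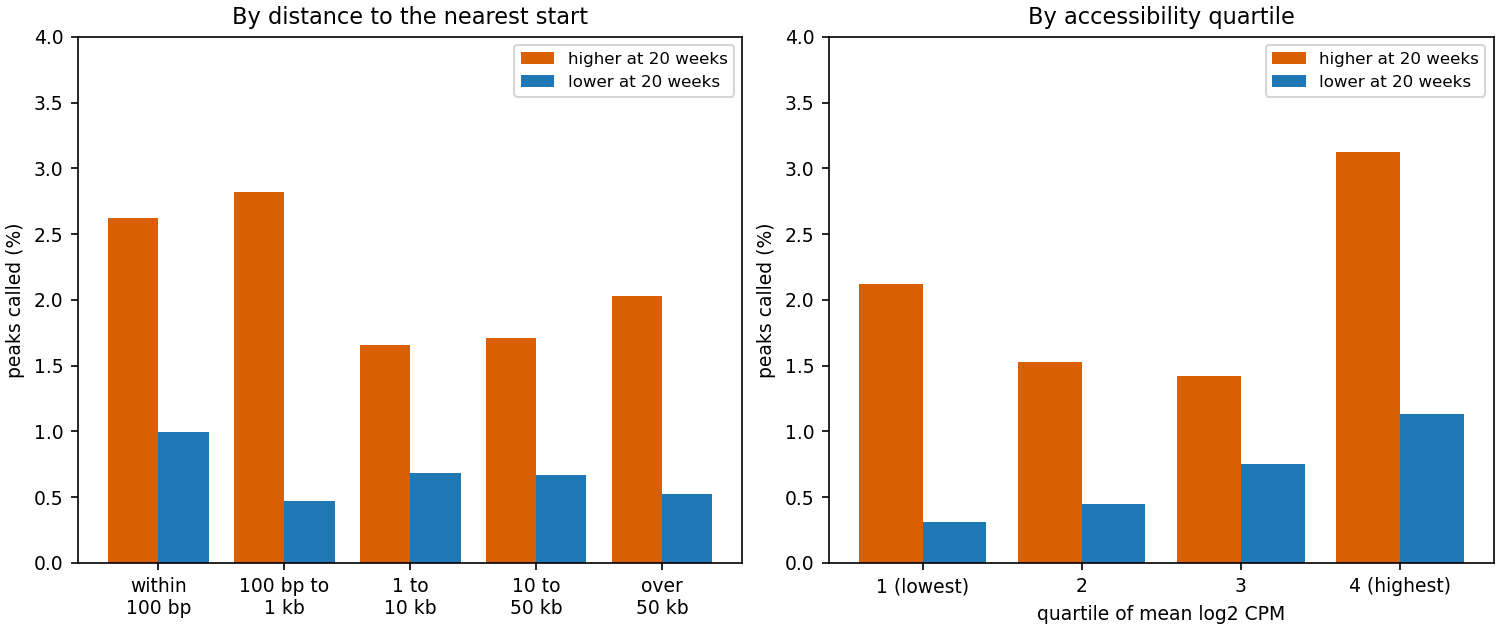
Percent of peaks called higher (orange) and lower (blue) on 20 weeks than on 7 weeks, by distance to the nearest start and by quartile of mean log2 CPM. The share higher is 2.62% within 100 bp and 2.82% from there to 1 kb, against 1.66% between 1 and 10 kb, and it is 3.12% in the most accessible quartile.

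Most promoters called more open on 20 weeks held CCAAT boxes. RefSeq promoter windows, from 250 bases before to 50 bases after a start, could be matched to 8887 promoter-class peaks (1 peak a window, at least 100 bp of overlap, 8371 genes), of which 288 were called higher and 94 lower. CCAAT, read on both strands, was in 256 of the 288 higher windows (88.9%), in 28 of the 94 lower windows (29.8%), in 3615 of all 8887 (40.7%) and in 12289 of all 32851 RefSeq windows (37.4%). At least 2 boxes were in 211 of the higher windows (73.3%), in 11 of the lower ones (11.7%) and in 1493 of all 8887 (16.8%). A match is a run of letters and not a bound site. Of the 16 motifs searched, 7 others were in over 5% of all windows. Of these, 4 were rarer in the higher windows: CCGGAAGT of the ETS family was in 3.47% against 9.05%, the NRF1 motif in 4.86% against 11.6%, the E-box CACGTG in 9.03% against 11.4% and the STAT motif in 4.51% against 6.66%. The other 3 were slightly more frequent: AGGTCA, read by nuclear receptors, was in 14.6% against 12.1%, GGAATG of TEAD factors in 11.5% against 11.1%, and the nuclear factor I motif TTGGCA, which can overlap ATTGG, in 11.8% against 11.2%. CCAAT was 1 motif of the list, and counting its boxes was chosen after its share was seen.

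The next 5 higher promoters with several boxes are printed because they show how densely the boxes lie in genes of different roles. Arntl encodes the core clock factor BMAL1 (chr7:113207215-113207464, plus strand), Hmgb2 a chromatin protein (chr8:57511593-57511842, plus strand), Nudcd2 a co-chaperone (chr11:40733411-40733660, plus strand), Hspa5 the endoplasmic reticulum chaperone BiP (chr2:34771840-34772089, plus strand), and Hmgcs1 the cytosolic HMG-CoA synthase of the sterol pathway (chr13:119690101-119690350, plus strand). Each is the 250 bases before the start, from RefSeq on GRCm38.p6 (mm10), 5′ to 3′ along the gene, with CCAAT or its complement ATTGG in capitals.
Arntl: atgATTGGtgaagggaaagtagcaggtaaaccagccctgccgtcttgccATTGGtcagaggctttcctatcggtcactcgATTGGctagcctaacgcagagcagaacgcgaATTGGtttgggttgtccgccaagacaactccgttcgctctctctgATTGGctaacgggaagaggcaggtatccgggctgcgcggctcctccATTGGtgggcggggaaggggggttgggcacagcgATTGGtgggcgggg
Hmgb2: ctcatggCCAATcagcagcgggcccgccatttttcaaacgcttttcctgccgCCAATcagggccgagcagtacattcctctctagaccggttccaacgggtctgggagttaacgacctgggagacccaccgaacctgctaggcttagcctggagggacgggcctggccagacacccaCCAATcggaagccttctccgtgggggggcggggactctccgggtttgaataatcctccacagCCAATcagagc
Nudcd2: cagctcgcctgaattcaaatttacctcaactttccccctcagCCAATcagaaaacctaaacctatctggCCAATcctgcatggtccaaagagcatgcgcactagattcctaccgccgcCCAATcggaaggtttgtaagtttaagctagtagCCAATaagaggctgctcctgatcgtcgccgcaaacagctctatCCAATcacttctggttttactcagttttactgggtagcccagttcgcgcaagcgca
Hspa5: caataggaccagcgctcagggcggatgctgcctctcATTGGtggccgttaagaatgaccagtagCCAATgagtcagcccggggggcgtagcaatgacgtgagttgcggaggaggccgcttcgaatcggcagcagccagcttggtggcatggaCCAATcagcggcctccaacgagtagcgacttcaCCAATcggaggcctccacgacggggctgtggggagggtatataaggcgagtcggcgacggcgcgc
Hmgcs1: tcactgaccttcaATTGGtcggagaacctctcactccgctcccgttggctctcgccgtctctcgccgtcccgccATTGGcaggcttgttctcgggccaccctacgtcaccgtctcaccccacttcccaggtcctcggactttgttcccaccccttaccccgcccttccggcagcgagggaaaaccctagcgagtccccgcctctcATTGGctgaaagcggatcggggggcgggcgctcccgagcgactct
These stretches hold 7, 4, 5, 4 and 3 boxes. For contrast, the next pair shows promoters where the count of boxes and the direction part: Cyp3a11, a drug-metabolising cytochrome P450 (chr5:145879855-145880104, minus strand), was higher with 0 boxes, and Hist1h2bp, a replication-dependent histone gene (chr13:21787238-21787487, plus strand), was lower with 4.
Cyp3a11: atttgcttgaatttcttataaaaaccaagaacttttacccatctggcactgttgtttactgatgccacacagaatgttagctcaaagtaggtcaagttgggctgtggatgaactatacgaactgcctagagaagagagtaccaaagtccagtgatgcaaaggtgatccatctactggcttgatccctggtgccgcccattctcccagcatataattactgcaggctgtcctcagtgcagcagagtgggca
Hist1h2bp: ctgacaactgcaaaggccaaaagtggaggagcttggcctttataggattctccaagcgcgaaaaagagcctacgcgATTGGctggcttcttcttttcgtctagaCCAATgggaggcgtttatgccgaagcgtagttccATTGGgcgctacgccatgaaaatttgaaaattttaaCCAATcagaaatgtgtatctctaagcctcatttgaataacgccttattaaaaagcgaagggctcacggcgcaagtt

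The peak over the Arntl promoter had 45.8, 36.1, 46.1 and 47.6 CPM on 20 weeks and 23.7, 21.5, 23.3 and 27.8 CPM on 7 weeks. Every 20-week library lay above every 7-week library, and the log2 fold change was 0.88 ± 0.10 (SE, adjusted p = 6.9e-06, edgeR). Hmgb2 had 95, 98.1, 94.8 and 105 CPM against 66.7, 62.4, 62.9 and 67.7 (0.60 ± 0.06, adjusted p = 5.62e-07), again without overlap. Nudcd2 had 42.4, 42.4, 37.7 and 39.5 CPM against 24.0, 22.1, 22.9 and 28 (0.74 ± 0.08). Hspa5 had 51.4, 48.8, 50.9 and 51.1 CPM against 33.0, 32.3, 39.9 and 39.4 (0.48 ± 0.07), and Hmgcs1 had 88.7, 88.6, 89.1 and 97.6 against 71.5, 68.8, 69.3 and 74.7 (0.36 ± 0.05). In all of these promoters the 2 groups stood apart while the libraries inside a group lay close. Zfp869, a zinc finger gene with 4 boxes before its start, showed the same separation, with 80.0, 79.8, 82.7 and 85.2 CPM against 57.9, 50.1, 52.5 and 55.3 (0.60 ± 0.06, adjusted p = 5.62e-07).

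The share of promoters called higher rose with the number of boxes in the window. It was 0.607% of 5272 windows without a box, 2.12% of 2122 with 1, 10.6% of 925 with 2, 15.8% of 366 with 3, 21.1% of 142 with 4 and 41.7% of 60 with 5 or more. The median log2 fold change over all windows, called or not, was -0.04, -0.00, 0.09, 0.13, 0.18 and 0.25 in the same order. The share called lower did not follow this order (1.25%, 0.801%, 0.757%, 0.546%, 1.41% and 0%). The order was also there within classes of base composition: in the lowest, middle and highest GC class of windows the share called higher was 0.454%, 0.914% and 0.455% without a box and 11.1%, 17.1% and 14.6% with at least 2. Classes of accessibility were taken from the 14 libraries that are not controls, and their shares are given from the least to the most open promoters. With at least 2 boxes 3.56%, 4.65% and 21% were called higher, and 2.67%, 1.03% and 0.114% lower. Without a box 0.523%, 0.381% and 1.05% were called higher, and 0.571%, 1.69% and 1.73% lower. The classes of GC and of accessibility were added after the pattern was seen, and a more open promoter has more reads and so more power to be called.

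**Figure D2:**
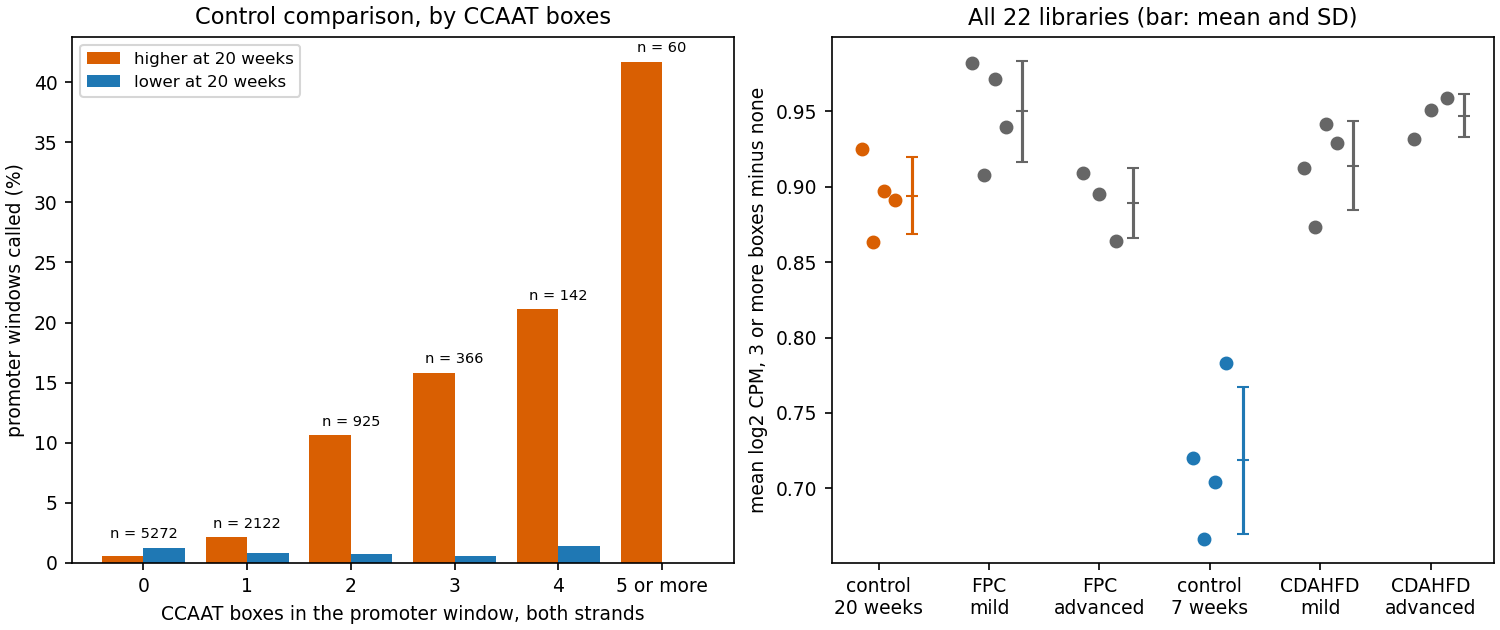
CCAAT boxes and promoter accessibility: the share of promoter windows called higher or lower by number of boxes, and the CCAAT index of every library (bars: mean and SD), the mean log2 CPM of windows with at least 3 boxes minus that of windows without one. The share called higher rises from 0.607% without a box to 41.7% with 5 or more, and the 4 libraries of the 7-week controls lie below the other 18.

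Within a library, the difference between the mean log2 CPM of promoters with at least 3 boxes and of promoters with none gives an index of how open CCAAT promoters were. It was 0.93, 0.86, 0.90 and 0.89 on 20 weeks (0.89 ± 0.03, SD) and 0.72, 0.67, 0.70 and 0.78 on 7 weeks (0.72 ± 0.05). The index was 0.95 in mild FPC, 0.89 in advanced FPC, 0.91 in mild CDAHFD and 0.95 in advanced CDAHFD mice (group means). It ran from 0.86 to 0.98 over the 18 libraries that are not 7-week controls, so the 7-week controls stood apart from all the rest, their own cohort included. The promoters of Arntl and Zfp869 were lowest in the same group. Arntl had group means of 51.3 CPM in mild FPC, 46.4 in mild CDAHFD, 52.8 in advanced FPC and 59.4 in advanced CDAHFD mice beside 43.9 and 24.1 in the controls. Zfp869 had 79.2, 78.2, 77.9 and 80.7 CPM in those 4 groups beside 81.9 and 54.0. Between cohorts at a matched stage the medians were ordered by the box count as well, over a narrower range and in opposite directions. In mild FPC against mild CDAHFD mice the median log2 fold change was -0.0062, 0.0066, 0.019, 0.027, 0.033 and 0.071 from 0 to 5 or more boxes, and in advanced mice it was 0.079, 0.076, 0.053, 0.033, 0.019 and 0.0045. In called windows the range was narrower too: of windows with 0, 1, 2, 3, 4 and 5 or more boxes, 2.56%, 3.35%, 3.46%, 2.73%, 6.34% and 3.33% were called higher in mild FPC than in mild CDAHFD mice, and 2.58%, 2.97%, 2.49%, 1.64%, 1.41% and 0% in advanced ones. No library of the 7-week controls can be set aside to restore the others, as all 4 lay low, and any batch of theirs cannot be told apart from the group.

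Several genes of the sterol pathway were more open on 20 weeks. Of 22 genes controlled by the sterol-sensing factor SREBP2 as a textbook family, listed after earlier values were seen, 8 passed the test, all higher, and all 22 had a log2 fold change above 0 with a median of 0.18 (background 3.79% higher). Under each scaling tried, all 22 stayed above 0, while the number called ran from 7 to 12. It was 4 in the 8 controls alone and 2 after every control was thinned to the smallest total, and 12 with peaks within 10 kb and 14 of 21 with sums over promoter peaks within 1 kb. Sqle, which encodes squalene epoxidase, had 93.4, 102, 107 and 110 CPM on 20 weeks and 84.5, 87.7, 70.1 and 69.4 on 7 weeks, without overlap (log2 fold change 0.41 ± 0.08, adjusted p = 0.00232). Tm7sf2, a sterol reductase, had 46.7, 46.5, 54.8 and 51.0 CPM against 35.7, 36.0, 32.4 and 41.0 (0.47 ± 0.09, adjusted p = 0.00226). Insig1, which retains the SREBP complex in the endoplasmic reticulum, had 609, 649, 659 and 743 CPM against 514, 499, 632 and 500 (0.31 ± 0.07), with 1 library of each group overlapping. Msmo1 (0.27), Idi1 (0.27), Hmgcs1 (0.18), Stard4 (0.20) and Nsdhl (0.33) were also higher. Hmgcs1 was lost without 7-week replicate 2 (adjusted p = 0.0557), and Nsdhl and Stard4 each without any 1 of 5 (up to 0.0818 and 0.0737).

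Of 13 promoter windows of these genes 4 were called higher, where 3.24% of all 8887 windows were. They were those of Msmo1 with 3 boxes, Hmgcs1 with 4, Idi1 with 2 and Tm7sf2 with 1. Not called were those of Mvk with 5 (log2 fold change 0.28), Nsdhl with 4 (0.34), Ggps1 with 3 (0.09), Ebp with 2 (0.37), Cyp51, Insig1, Lss and Sc5d with 1 each (0.07 to 0.23) and Acat2 with 0 (-0.13). In the list of 30 genes for fatty acid and sterol synthesis 5 were higher and 2 lower, where 3.79% and 2.26% of all genes were. The lower pair were Acaca and Pnpla3. Acaca, which encodes acetyl-CoA carboxylase, had 65.9, 76.0, 50.3 and 65.8 CPM on 20 weeks against 82.8, 77.7, 89.8 and 95.2 on 7 weeks (-0.44 ± 0.11, adjusted p = 0.0189). Pnpla3, a lipase of lipid droplets induced by feeding, had 60.7, 57.2, 46.2 and 44.7 CPM against 67.4, 82.4, 63.7 and 73.2 (-0.46 ± 0.10, adjusted p = 0.00592). Both fell in all 4 libraries without overlap. Without 20-week replicate 3 or 7-week replicate 3 Acaca missed the threshold (adjusted p = 0.105 and 0.0564).

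Of 27 genes for heat shock and the unfolded protein response, 3 were higher and 0 lower, where 3.79% and 2.26% of all genes were, and the list median was 0.03. The 3 were all endoplasmic reticulum genes. Hspa5 had 134, 129, 129 and 129 CPM over its 3 peaks on 20 weeks and 94.9, 92.9, 107 and 119 on 7 weeks (0.34 ± 0.06, adjusted p = 0.00228). Hsp90b1, the paralog of HSP90 in that compartment, had a log2 fold change of 0.39 ± 0.08, and Eif2ak3, the stress sensor kinase PERK, one of 0.28 ± 0.06. Neither overlapped between the groups. Of 12 promoter windows of endoplasmic reticulum genes 5 were called higher, where 3.24% of all 8887 windows were. This set was not one of the 30 lists and was put together after values were seen. Among all windows with 3, 4 and 5 or more boxes 15.8%, 21.1% and 41.7% were, and the part of the box count in the 5 calls was not tested. They were those of Hspa5 (given above), Derl3 with 5 boxes (0.70), Hsp90b1 with 6 (0.50), Pdia4 with 3 (0.30) and Eif2ak3 with 6 (0.29). Not called were Sel1l with 4 (0.18), Sdf2l1 with 4 (0.08), Herpud1 with 2 (0.22), Atf4 with 2 (0.10), Pdia6 with 2 (0.02), Ddit3 with 1 (0.18) and Ern1 with 0 (-0.12). Of 25 clock genes 2 were higher. Arntl had 201, 177, 197 and 193 CPM over 8 peaks against 150, 145, 153 and 152 (0.36 ± 0.06, adjusted p = 0.000673), and Dbp, an output factor of the clock, had 212, 209, 215 and 185 against 186, 135, 174 and 154 (0.34 ± 0.09, adjusted p = 0.0284). Dbp overlapped by 1 library of each group and was lost without any 1 of 5 libraries (20-week replicates 1, 2 and 3, 7-week replicates 2 and 4, adjusted p up to 0.0892). The hour of sampling is not in the labels.

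Detoxifying enzymes made up the next group. Of 22 glutathione transferase genes, which conjugate toxins to glutathione, 8 were higher and 0 lower, with a median log2 fold change of 0.17 over the 22 and 18 above 0. The family was listed after its values were seen, and 6 to 8 passed under the scalings tried. In the 8 controls alone 4 passed, after thinning 4, and without 20-week replicate 1, 2 or 3 there were 4, 5 and 4. The background was 3.79% higher. The Gsta2 promoter peak had 22.8, 18, 17.3 and 18 CPM on 20 weeks and 4.24, 5.24, 6.89 and 3.57 on 7 weeks (1.90 ± 0.18, adjusted p = 5.62e-07). All 4 were above all 4. Gstt3 had 35.5, 35.8, 31.9 and 35.8 CPM over its 4 peaks against 19.1, 23.0, 18.6 and 20.6 (0.77 ± 0.10, adjusted p = 3.26e-05), and Gstm1 had 190, 155, 202 and 171 against 138, 140, 142 and 137 (0.37 ± 0.07). Gsta4, which clears lipid peroxidation products, had a log2 fold change of 0.66 ± 0.12. Of the 8, Gsta1, Gsta3, Gstk1 and Gstt2 were lost when 1 of several libraries was left out (adjusted p up to 0.102, 0.163, 0.149 and 0.116). Members of this family are similar in sequence, so reads may be shared among copies, and how such reads were counted is not stated in the labels.

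The Cyp3a11 promoter peak was low on 7 weeks, at 0.847, 1.20, 1.90 and 2.72 CPM, and at 12.1, 10.1, 6.89 and 14.2 CPM on 20 weeks (2.68 ± 0.28, adjusted p = 4.31e-06). Its group means were 9.53 CPM in mild FPC, 6.63 in mild CDAHFD, 12.3 in advanced FPC and 9.88 in advanced CDAHFD mice. Here too the 7-week controls were the lowest group. Over the 8 peaks near this gene the sums were 124, 111, 109 and 126 against 71.9, 74.4, 96.3 and 105 CPM (0.43 ± 0.10, adjusted p = 0.0111). Cyp3a25, a neighbour of the same family, had 151, 140, 144 and 161 CPM against 88.5, 78, 115 and 97.6 (0.65 ± 0.13, adjusted p = 0.00446), and over peaks within 10 kb it did not pass (0.15, adjusted p = 0.504). These were 2 of 7 Cyp3a genes, which are near copies of one another as well. In the wider list of xenobiotic metabolism 5 of 25 genes were higher and 0 lower, and in the list of NRF2 targets, the oxidative stress genes, 4 of 21 were higher and 0 lower, among them the transporter Abcc4 (0.34 ± 0.07). Both lists hold glutathione transferases. Of all genes 3.79% were higher and 2.26% lower. Abcc3, a basolateral bile acid exporter, had 177, 159, 135 and 125 CPM against 105, 105, 127 and 112 (0.40 ± 0.08, adjusted p = 0.00498), with overlap of the groups. It was the 1 gene called of 24 for bile acid synthesis and transport (4.17%), where 6.04% of all genes were called.

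**Figure D3:**
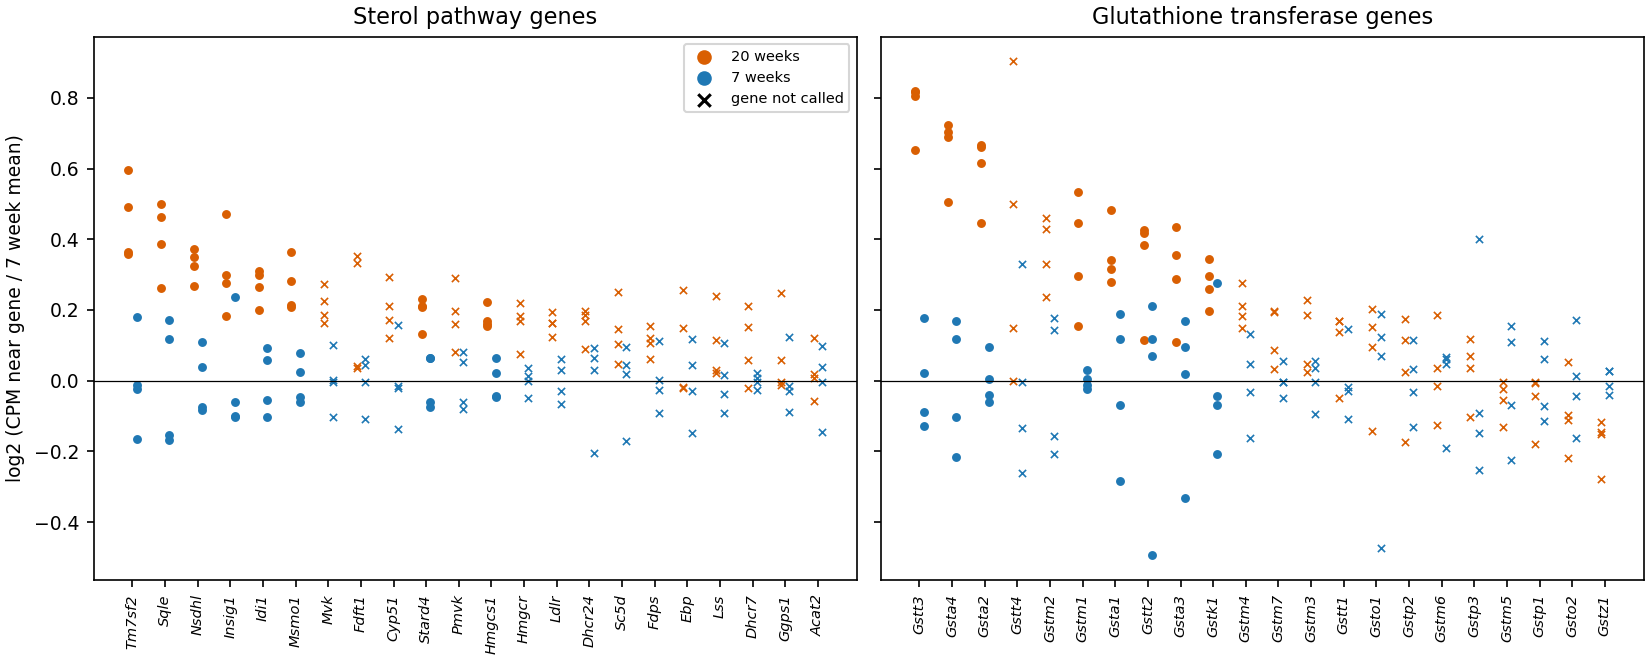
Log2 of each library's CPM near a gene over the mean of the 7-week controls, for the measured sterol pathway and glutathione transferase genes, 1 point a library (orange 20 weeks, blue 7 weeks, crosses for genes that did not pass the test). In the 8 sterol and 8 glutathione transferase genes that passed, the orange points lie mostly above the blue ones, with overlap in some, among them Insig1 and Gstk1.

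Some replication-dependent histone genes of the Hist1 cluster on chromosome 13 were less open on 20 weeks. Of 43 with a peak within 50 kb, 6 were lower (Hist1h1b, Hist1h2ai, Hist1h2ak, Hist1h2an, Hist1h2bp and Hist1h3i, log2 fold changes -0.81 to -1.44) and 1 was higher (Hist1h2ad, 0.61), and the median of all 43 was 0.06, beside a background of 2.26% lower and 3.79% higher. With promoter peaks within 1 kb alone, 5 were lower and 4 higher of 39, and Hist1h1b did not pass (-0.28, adjusted p = 0.753). With a mean of at least 50 counts 3 of 32 were lower. The Hist1h2bp promoter peak had 5.33, 6.36, 6.22 and 4.05 CPM on 20 weeks and 13, 13.8, 12.4 and 13.6 on 7 weeks (-1.24 ± 0.17, adjusted p = 9.61e-05). The peak named for Hist1h2an, whose start lies back to back with it, had 7.03, 6.89, 6.72 and 5.31 against 17.5, 15.9, 17.2 and 12.9 CPM (-1.29 ± 0.18), and these peaks overlap, so they count the same stretch in part. Both were low in all 4 libraries on 20 weeks. Of the 6, Hist1h2ak and Hist1h2ai were lost when 1 of several libraries was left out (adjusted p up to 0.127 and 0.168). The Hist1 genes are near copies, so the share of reads placed at each is uncertain. Of 27 cell cycle and replication genes 3 were higher and 1 was lower. The higher were the replication helicase subunits Mcm3 (89.97, 73.2, 89.7 and 81.8 CPM against 66.2, 67.5, 61.1 and 73.0) and Mcm5 (0.25 ± 0.06) and the factor E2f3 (0.19 ± 0.05). Mcm5 was lost without 20-week replicate 1 (adjusted p = 0.0526) and E2f3 without any 1 of 4 libraries (20-week replicates 1 and 2, 7-week replicates 1 and 2, up to 0.0602).

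The next genes are those with the largest fold changes among called genes that lay above the median level of all genes and did not overlap between the groups. Sfi1, a centrosomal protein, had 125, 169, 113 and 158 CPM on 20 weeks and 72.2, 60.9, 69.4 and 76.7 on 7 weeks (1.01 ± 0.11, adjusted p = 1.13e-05). Its 20-week libraries stood in the order of their summed satellite signal, given below, and its 7-week libraries only in part. Whether reads from repeats had a part in it was not tested. Ly6c2, a surface antigen best known from monocytes, had 92.5, 95.5, 84.4 and 106 CPM against 43.6, 40.9, 57.7 and 47.6 (0.98 ± 0.12, adjusted p = 2.68e-05). Hcls1, a cytoskeletal adaptor of blood cells, had 112, 94.6, 78.9 and 85.6 against 57.8, 51.0, 49.3 and 59.1 (0.77 ± 0.16). Of the short set of 6 macrophage markers 3 had a peak, and Clec4f, Vsig4 and Timd4 had none. The longer macrophage list was lower on 20 weeks, as given above. Whether other cells had a part in these signals was not tested. Malat1, a nuclear long non-coding RNA, had 139, 105, 145 and 136 CPM against 59.2, 95, 79.6 and 72.6 (0.78 ± 0.11). The 6 other higher ones were Tmem45b (0.90), Dpy19l3 (0.81), Stk38l (0.74), Col19a1 (0.74), Brox (0.70) and Trhde (0.68), with the same limits. The change lay at distal peaks in Brox, Dpy19l3 and Stk38l, whose promoter peaks within 1 kb gave 0.09, 0.15 and 0.18 and did not pass. For Col19a1, the distal peak at -25314 bp given above had the same log2 fold change as the sum around the gene (0.74).

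Within the same limits Fam46a fell most, with 38.4, 48.7, 44.3 and 39.4 CPM on 20 weeks and 79.8, 60.3, 74.3 and 99.1 on 7 weeks (-0.87 ± 0.12, adjusted p = 8.91e-05). Igf2bp3, which encodes an RNA-binding protein of fetal liver, had 35.0, 28.6, 47.8 and 55.7 against 81.1, 59.3, 70.6 and 66.2 (-0.72 ± 0.13, adjusted p = 0.00124), and its relative Igf2bp2 had 17.8, 23.9, 13.3 and 12.4 against 33.9, 37.2, 29.8 and 21.0 (-0.89 ± 0.18, adjusted p = 0.00412) with 1 library of each group overlapping. These were the 2 called of 18 measured oncofetal genes (11.1%), where 6.04% of all genes were called. Schip1 (-0.52), 1700122O11Rik (-0.52), 4933402C06Rik (-0.49), Tmem86a (-0.46) and Nup210 (-0.43) fell without overlap, 4933402C06Rik not passing without 20-week replicate 3 (-0.36, adjusted p = 0.0732). Single peaks lower on 20 weeks included one at -11168 bp from Entpd2, an enzyme that splits extracellular nucleotides, with 0.969, 2.65, 2.35 and 1.77 CPM against 7.91, 7.78, 6.65 and 6.11 (-1.85 ± 0.27), and one 37200 bp from Cyp19a1, the aromatase gene (-1.27 ± 0.18). A peak in an intron of Gpi1 with a (CA)n repeat had a log2 fold change of -1.06 ± 0.19, and the peaks of Tmem86a (-1.73), Oser1 (-1.13) and 1700122O11Rik (-1.10) that fell lay in SINE repeats. Higher single peaks included those near Mknk2, which also differed at the other stages (2.21 ± 0.34), in an exon nearest to Pigv (1.53 ± 0.29) and in an intron of Unc5b (1.46 ± 0.32), the last lost without 20-week replicate 2 (adjusted p = 0.0696) or 7-week replicate 3 (0.0521). The Tmem86a peak did not pass without 20-week replicate 3 (-1.41, adjusted p = 0.0724).

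Among the metabolic lists, that of the urea cycle and amino acid breakdown had the highest share called of all 30 lists, 25% of 28 genes, where 6.04% of all genes were called. In it 6 were higher and 1 lower: Fah, of tyrosine breakdown, had 312, 303, 328 and 338 CPM against 259, 283, 257 and 268 (0.27 ± 0.05), Gls2, the liver glutaminase, 289, 295, 284 and 324 against 230, 230, 254 and 266 (0.28 ± 0.06), and Sds, serine dehydratase, 34.4, 31.1, 30.9 and 30.2 against 23.8, 18.4, 19.7 and 19.2 (0.64 ± 0.14). None of the 3 overlapped. Of 25 genes for fatty acid oxidation and fasting, 1 was lower, the fasting hormone Fgf21, with 53.3, 53.1, 41.5 and 47.7 CPM against 63.7, 64.2, 67.1 and 61.1 (-0.40 ± 0.10, adjusted p = 0.0124). In zonation, Glul, the pericentral glutamine synthetase, was the 1 lower of 24 pericentral genes (-0.38 ± 0.10), and Cdh1, E-cadherin, was the 1 lower of 24 periportal genes (-0.35 ± 0.10) beside 2 higher. Lipid droplet genes gave Fitm1 higher (0.53 ± 0.16) and Lpl lower (-0.33 ± 0.08) of 22, and Lpl changed sign with the window used to assign peaks (0.44 within 10 kb). When 1 library was left out, Fgf21 was lost without 20-week replicate 3 (adjusted p = 0.0742), Glul without any 1 of 3 libraries (20-week replicates 1 and 3, 7-week replicate 4, up to 0.106), Cdh1 without any 1 of 4 (20-week replicates 1 and 2, 7-week replicates 1 and 3, up to 0.109) and Fitm1 without any 1 of 7 (up to 0.153).

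The remaining lists held at most 3 called genes each. Of 26 genes of gluconeogenesis, glycolysis and fructose, 24 male-biased, 22 female-biased, 17 growth hormone, 32 interferon and 19 YAP genes none passed in edgeR. At an unadjusted p under 0.05 there were 0, 2, 3, 1, 4 and 1 in that order, and DESeq2 called 1, Trim24. Among the genes smallest in p in those lists were Pklr (-0.27, adjusted p = 0.294), Mup3 (-0.31, adjusted p = 0.0829), Trim24 (0.21, adjusted p = 0.0595), Jak2 (-0.18, adjusted p = 0.16) and Crim1 (0.24, adjusted p = 0.113). In the stress lists the immediate early factor Klf6 was higher, with 103, 107, 109 and 108 CPM against 80.8, 88.0, 84.0 and 85.7 (0.34 ± 0.05, adjusted p = 0.000622), as was Ier5 (0.28 ± 0.07), and Klf10 was lower (-0.21 ± 0.06), of 27. Of 30 acute phase and NF-kB genes 2 were higher, Nfkbiz (0.33 ± 0.07) and Il6st (0.26 ± 0.05). Senescence genes gave Cdkn2b higher (0.29 ± 0.08) of 23 and the glucocorticoid list Zbtb16 lower (-0.46 ± 0.13) of 20. Of the lists for other cell types, with 18 cholangiocyte, 4 stellate, 16 endothelial and 5 lymphocyte genes, 1 gene passed, Cx3cr1, a chemokine receptor of macrophages, lower at 11.5, 16.3, 14.9 and 16.9 CPM against 29.5, 20.3, 27.3 and 22.2 (-0.75 ± 0.14), of 7 macrophage genes. With 1 library left out, Cdkn2b and Zbtb16 were lost in 7 of 8 cases each (adjusted p up to 0.1 and 0.125), Ier5 and Klf10 in 5 (up to 0.0849 and 0.11). Over all 30 lists, 33 of 609 measured genes were higher and 14 lower, where 3.79% and 2.26% of all genes were. Adjusted p-values in these paragraphs are edgeR's.

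Satellite and ribosomal RNA repeats were more accessible on 20 weeks, and most other repeat classes were not. Of 28 peaks annotated as satellite 17 were higher and 0 lower, with a median log2 fold change of 1.47. They were all 8 peaks named GSAT_MM, the major satellite beside mouse centromeres (median 1.85), and all 9 named SYNREP_MM (1.57), while 0 of 9 named ZP3AR passed (0.08). A GSAT_MM peak nearest to 4933422A05Rik had 28.8, 40.8, 13.6 and 29.8 CPM on 20 weeks and 5.51, 5.68, 4.75 and 5.09 on 7 weeks (2.40 ± 0.27, adjusted p = 8.53e-06), the largest change among the peaks named by rule. The summed signal of the 28 was 636, 774, 439 and 640 CPM on 20 weeks and 298, 290, 269 and 305 on 7 weeks, which is 622 ± 138 against 291 ± 15.7 (SD, n = 4 each) with no overlap. The 14 libraries of the disease groups lay between 346 and 594 CPM, so the 7-week controls were below all of them. Of 22 ribosomal RNA peaks 11 were higher, with sums of 432, 469, 497 and 662 against 308, 222, 309 and 429 CPM, so that the highest library on 7 weeks nearly reached the lowest on 20 weeks. The disease libraries lay between 513 and 987 CPM, above all the 7-week controls too. Under the scalings tried 17 satellite and 11 ribosomal peaks were higher in each, with the 8 controls alone 17 and 5, and after thinning 17 and 4. With 1 library left out 17 satellite peaks were higher each time. The ribosomal count was then 5 without 20-week replicate 4, 7-week replicate 2 or 7-week replicate 3, and 7 to 14 otherwise. Of 3560 peaks in long terminal repeats, the remains of endogenous retroviruses, 108 were higher and 18 lower (3.03% and 0.506%, where 2.05% and 0.661% of all peaks were). The share higher was 1.51% of 1525 LINE peaks, 1.42% of 3383 SINE peaks, 0.641% of 624 DNA transposon peaks and 0 of 63 tRNA peaks. Among the long terminal repeats was one at -1991 bp from Brox with 20.4, 18.8, 14.3 and 24.5 against 4.24, 5.68, 6.18 and 7.47 CPM (1.72 ± 0.20). Reads from repeats exist in many copies and cannot be placed, so a sum follows the amount of such sequence among the reads and no single place. These classes were looked at after the calls were seen.

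**Figure D4:**
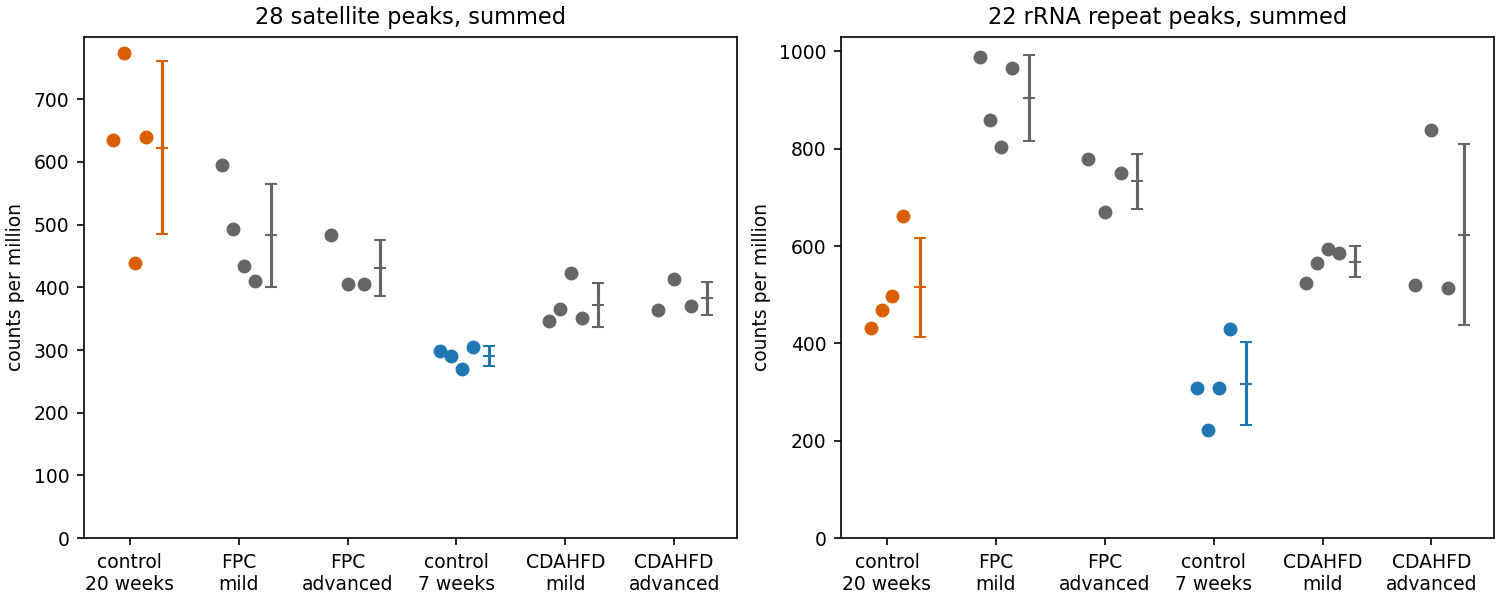
Summed CPM in the peaks annotated as satellite and as ribosomal RNA, 1 point a library, by group, with bars for the mean and SD. The 20-week controls lie between 439 and 774 in satellite peaks, above the 7-week controls at 269 to 305.

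The same cohorts could be compared at the mild and advanced stages, with libraries that the controls do not share, although the diet then differs too. Of the 1411 peaks higher on 20 weeks, 389 (27.6%) were also higher in mild FPC than in mild CDAHFD mice, where 6.83% of all peaks were, and 38 were lower. In advanced mice 121 (8.58%) were higher, where 2.38% of all peaks were, and 16 lower. Of the 455 peaks lower on 20 weeks, 57 (12.5%) were lower in mild mice, where 4.56% of all were. Another 30 (6.59%) were higher there, where 6.83% of all were. In advanced mice 6 (1.32%) were lower, where 1.48% of all were, and 14 (3.08%) higher, where 2.38% of all were. By sign alone, called or not, 258 of the 455 (56.7%) were lower in advanced mice, where 48.1% of all peaks were. The shared peaks were 8.27% and 1.82% of the mild and 7.37% and 0.589% of the advanced lists. In all 3 comparisons 98 peaks were higher, 17 of them in long terminal repeats, and 4 lower.

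Some of the 98 peaks were low in every group of the 7-week cohort. The promoter-class peak at Timm8a1, a mitochondrial import chaperone, had group means of 15.8 CPM in 20-week and 1.33 in 7-week controls, 14.8 and 1.26 in mild FPC and mild CDAHFD, and 6.67 and 2.11 in advanced FPC and advanced CDAHFD mice. At the promoter of Dmrta1, a transcription factor gene, the same means were 25 and 7.36, 20.3 and 4.96, and 8.98 and 2.93. At Nrxn3, a neurexin, they were 10.5 and 2.82, 8.90 and 0.934, and 5.36 and 1.22, and at Mknk2, a kinase gene, they were 17.9 and 3.85, 32.7 and 7.82, and 15.5 and 6.51. These were picked from peaks called higher in all 3 comparisons, which fixes the order of the cohorts at each stage. An Insig1 peak 8571 bp downstream of the start had 18.7 and 6.26, 7.52 and 3.41, and 5.17 and 1.58 CPM. At the level of genes, 6.9% of all were higher and 5.58% lower in mild FPC than in mild CDAHFD mice. Sqle was among the lower (-0.58, adjusted p = 1.2e-05) and Igf2bp2 among the higher (1.03, adjusted p = 0.00012), opposite to the controls. Strain background, litter and batch of each cohort are not in the labels, so their part was not tested.

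Libraries inside a group also differed from each other along an axis on which the groups overlapped. Correlations of log2 CPM were 0.927 to 0.955 within 20 weeks, 0.925 to 0.965 within 7 weeks and 0.915 to 0.949 between them. The first principal component of the 8 controls held 27.3% of the variance, with scores of -63.8, -10.4, -49.1 and 16.1 on 20 weeks and 26.3, -27.0, 36.2 and 71.6 on 7 weeks, so 3 of 4 libraries of each group lay on opposite sides of 0. Among the 200 peaks that weighed most at its high end were 7 near Pck1 and 3 near G6pc, the enzymes of glucose production, and 6 near Tat. At its low end were 5 near Cish, a target of growth hormone signalling, 4 near Fabp1 and 3 near Igf1. Pck1 had 233, 466, 224 and 489 CPM on 20 weeks and 310, 265, 493 and 497 on 7 weeks. Cish had 261, 161, 245 and 128 against 102, 269, 128 and 101 CPM, highest in the 3 libraries where Pck1 was lowest. None of these 6 genes was called between the durations, and they were picked after their values were seen. Called in the direction of the axis were Fam46a and Igfbp1, with 2 peaks each at its high end, and Malat1, with 3 at its low end. The second component held 21.3%, with scores of 10.4, 45.4, 0.69 and 60.5 on 20 weeks against -31.0, -65.0, -21.6 and 0.54 on 7 weeks, and there the groups touched only at 0.69 and 0.54, with no overlap.

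**Figure D5:**
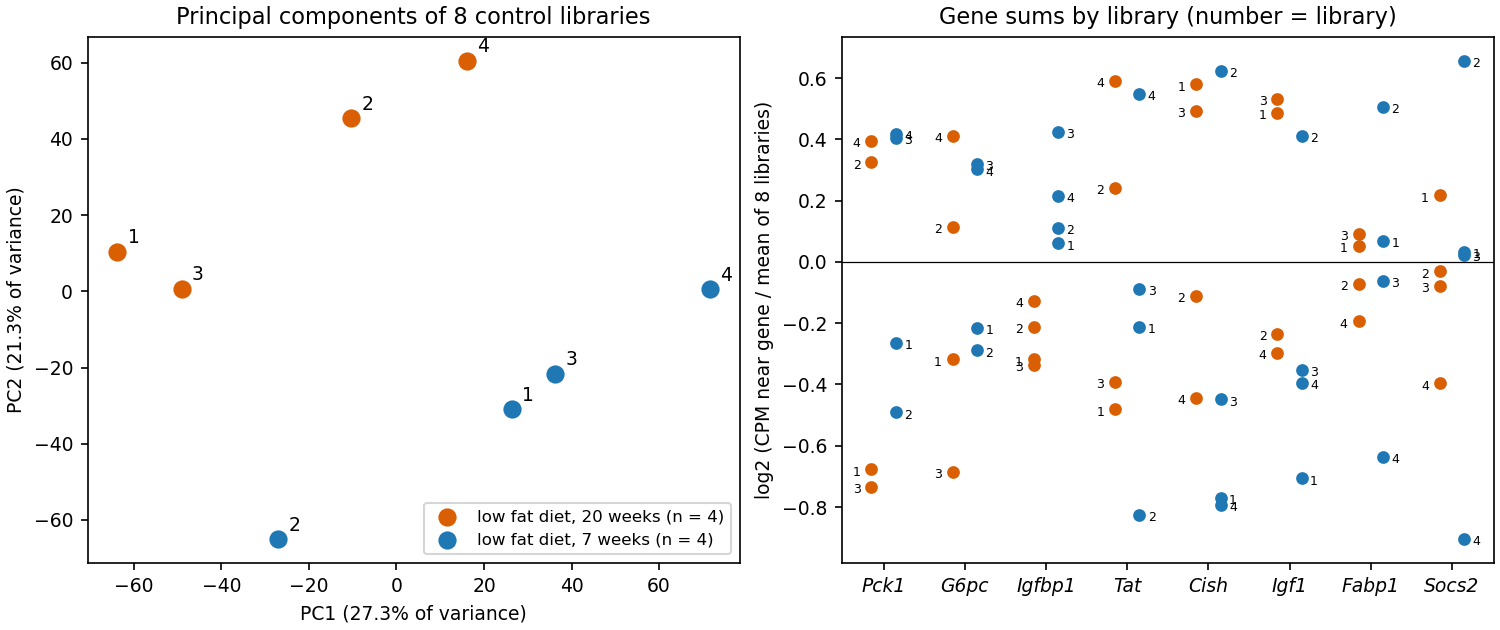
Principal components of log2 CPM over the 8 control libraries, 1 point a library, coloured by time on the diet, and beside it the log2 of each library's CPM near 8 genes over the mean of the 8 libraries, with the library's number. The groups overlap on the first axis (27.3% of the variance) and separate on the second (21.3%), and among the 8 genes Igfbp1 alone shows no overlap of the groups.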

How the data were processed

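Expected counts were deposited by the authors as 1 table of 68827 peaks, each 200 bp wide, in 22 libraries, un-normalized; 47.8% of values end in 0.5, and they were rounded before testing. Peak positions, the nearest gene and the repeat class are the authors' annotation. The submitters' processing notes name BWA 0.7.5a-r405, SAMtools, HOMER, DESeq2 and mm10, with no settings; the handling of multi-mapped reads and duplicates is not given in the sources used here. Read-level steps that shift cuts or remove duplicates could change weak peaks.

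Counts were fitted with edgeR 4.0.16 (TMM, quasi-likelihood, R 4.3.3) over all 22 libraries in 6 groups, with the contrast of 20-week minus 7-week controls, for peaks and for sums over peaks within 50 kb of a start (56777 peaks, 82.5%, 15686 genes). The filter on low counts removed no peak. A call is an adjusted p under 0.05. CPM are library-scaled, and log2 CPM use a prior count of 2. The fit was tested on simulated data. Shares per library used exact permutation tests.

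Genes named were up to 3 called genes by smallest p of each of 30 lists (or 1 where none was called), the 10 with the largest change in each direction without overlap and above the median level, likewise 10 peaks each way, the most accessible peaks, and Alb, Hnf4a and Ttr. The members and lists were chosen with earlier results of these data known. The sterol, glutathione transferase, Cyp3a and Hist1 families and the set of endoplasmic reticulum promoters were chosen after values were seen. So were the repeat classes, the counts of CCAAT boxes, the printed promoters and the genes of the first component. Promoter sequences are RefSeq's on GRCm38.p6. A few genes that these rules name are not reported here. Overlapping peaks (3149 neighbouring pairs) share reads.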

Additional observations from a re-analysis of the deposited data

Results flagged for a closer look

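In 15 of 212 groups of 4 libraries (7.08%, where chance gives about 1 in 20) 1 library stood far from the rest, by its gap to the nearest divided by the range of the group. The total count of the 20-week replicate 3 was one, 6.04 M reads against 3.79 to 4.17 (0.831). Among 20-week libraries, replicate 1 was high for the Hspa5 gene sum (134 CPM against 129 to 129, 0.938) and for the Gsta2 peak (22.8 against 17.3 to 18, 0.869), and low for Gsta4 (16.05 against 18.2 to 18.7, 0.831). Replicate 2 was low at the Arntl promoter (36.1 against 45.8 to 47.6, 0.847) and at the Hspa5 promoter (48.8 against 50.9 to 51.4, 0.832). Replicate 3 was high for Il6st (138 against 126 to 128, 0.863). Replicate 4 was low for Hnf4a (149 against 164 to 165, 0.923) and high at the Hmgcs1 promoter (97.6 against 88.6 to 89.1, 0.941).

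Among 7-week libraries, replicate 3 was high for Insig1 (632 CPM against 499 to 514, 0.887). Replicate 4 was high for E2f3 (307 against 276 to 277, 0.956) and Klrb1c (190 against 163 to 164, 0.954) and low at the Oser1 peak (11.4 against 12.7 to 12.9, 0.897). Replicate 1 was high at the Tmem45b peak (11.4 against 3.73 to 4.79, 0.864), and replicate 2 low at the Hist1h2ak peak (5.68 against 7.91 to 8.32, 0.845). At the Arntl promoter the low library still lay above all 4 of the 7-week libraries, and at the Tmem45b peak the high one lay below all 4 of the 20-week libraries. None of these was explained here.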

How the results depend on the processing

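The number of called peaks was 1866 and ran from 1784 to 2080 under other scalings and DESeq2's Wald test. It was 764 in the 8 controls alone and 478 after these 8 were also thinned to the smallest total. In the main fit it was 1128 with a change over 1.5-fold as well, and 968 to 1806 when 1 library was left out. It was 968 without 20-week replicate 1, 1096 without 20-week replicate 3 and 1039 without 7-week replicate 3. Genes called numbered 948, and 369 and 264 in the same first pair of settings, and 580 to 907 without 1 library (580 and 603 without 20-week replicates 1 and 3). No called peak or gene changed sign in any of these refits, and 24.5% to 100% of called peaks were called again. The share of called peaks that were higher, 75.6%, was 86.8% in the controls alone and 87.9% after thinning. The share of higher promoters with CCAAT, 88.9%, stayed within 84.8% to 90.4% without 1 library, and was 92.7% in the lowest GC class. The promoter share, 0.12 percentage points apart, was -0.21 when taken within 100 bp and -0.14 to 0.40 without 1 library, and never passed the exact test. The total count difference of -2.51 M reads ran from -3.02 to -2.05 and passed it without 20-week replicate 3 (exact p = 0.0286). Insig1 was -0.049 and Schip1 0.16 with promoter peaks within 1 kb alone, and Lpl was 0.44 within 10 kb and 0.45 within 1 kb. The cause was not tested. Of 1703 values for 86 genes named or in a family, 1501 kept their call, 190 lost it, 8 gained it and 4 changed sign, and of 497 for 28 peaks 483 kept it. No paired analysis was possible because no number is shared between the groups. The offset for GC content was not run, as no genome was given, so GC was taken from promoter windows only. With 3.79 M reads as the total, the 8 controls alone gave 478 called peaks in place of 764. Of these 420 in place of 663 were higher and 58 in place of 101 lower. Whether weak peaks were lost more often than strong ones was not tested.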
